A study of Homo sapiens with 7 samples.

Results

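Mature miRNA levels were compared between HepG2 cells at 48 h of siRNA treatment against TEAD1 and untreated HepG2 cells. HepG2 is an established human line from a liver tumour. The 3 libraries are 1 of untreated cells (0 h, labelled WT) and 1 for each of 2 siRNAs against TEAD1 at 48 h (labelled TEAD1 knockdown). The members are all human rows with a mean count of at least 10 over these 3 libraries, which were 479 of the 2652 mature miRNAs in the files. They held 99.9% of the miRNA reads. miR-10395-5p and miR-10b-3p, at a mean count of 10, lay just inside the minimum, and miR-548j-5p, miR-4742-3p and miR-6515-5p, at 9.67, just outside. The whole series has 7 libraries, the other 4 being the same siRNAs at 24 and 36 h.

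Every siRNA and time is 1 library, the siRNA sequences are not given in the labels, and no group received a control siRNA. Transfection, time in culture and silencing of TEAD1 therefore cannot be told apart, nor can any of them from what is particular to the lone untreated library. Nothing in the labels says that the libraries came from separate cultures, so p-values speak only of how these libraries vary, and that spread may be technical. TEAD1 is an mRNA and was not measured here. In bulk samples a change in the mix of cells and a change in RNA per cell cannot be told apart.

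TEAD1 binds DNA at the end of the Hippo pathway and acts on target genes with the coactivators YAP and TAZ when the pathway is off. A miRNA is cut from a hairpin precursor, whose 5p and 3p arms can each give a mature strand, and it guides Argonaute proteins to mRNAs. Target choice rests mainly on the seed, bases 2 to 8 of the mature strand, so miRNAs with the same seed form a family that shares many targets. Many miRNA genes lie in introns or exons of host genes, and neighbours made from 1 primary transcript form a cluster. Clusters such as miR-17-92 are known for activation by MYC and E2F in dividing cells.

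The mature sequences below are of miRNAs that were lower at 48 h, shown because seeds recur among them. Capitals mark the seed. Sequences are from RefSeq (GRCh38.p14), which matched 429 of the 479 members by name. The first 4 share the seed AAAGUGC, the next pair GUGCAAA, and the 3 after that AGUGCAA. The last 8 have other seeds.
miR-17-5p: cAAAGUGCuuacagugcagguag
miR-20a-5p: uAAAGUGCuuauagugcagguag
miR-106b-5p: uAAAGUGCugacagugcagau
miR-93-5p: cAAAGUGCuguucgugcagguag
miR-19a-3p: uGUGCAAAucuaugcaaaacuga
miR-19b-3p: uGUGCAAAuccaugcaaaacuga
miR-301a-3p: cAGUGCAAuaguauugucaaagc
miR-130b-3p: cAGUGCAAugaugaaagggcau
miR-454-3p: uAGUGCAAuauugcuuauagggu
miR-340-5p: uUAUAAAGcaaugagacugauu
miR-374a-3p: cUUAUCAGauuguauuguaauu
miR-101-3p: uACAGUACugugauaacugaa
miR-32-5p: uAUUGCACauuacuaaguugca
miR-7-5p: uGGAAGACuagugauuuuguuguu
miR-122-5p: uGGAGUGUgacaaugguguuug
miR-671-5p: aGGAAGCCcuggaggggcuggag
miR-378c: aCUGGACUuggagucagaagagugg

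The sequences of miRNAs that were higher at 48 h are shown because several are short (miR-4443 has 17 bases, miR-12136 has 18, miR-1246 and miR-1260b have 19) or rich in G and C, and because their seeds differ, apart from that of miR-99a-5p, which miR-100-5p shares.
miR-1246: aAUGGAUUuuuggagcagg
miR-12136: gAAAAAGUcauggaggcc
miR-4443: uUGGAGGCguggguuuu
miR-1260b: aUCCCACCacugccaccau
miR-615-3p: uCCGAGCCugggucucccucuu
miR-139-5p: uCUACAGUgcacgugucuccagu
miR-7706: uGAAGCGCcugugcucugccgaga
miR-328-3p: cUGGCCCUcucugcccuuccgu
miR-143-3p: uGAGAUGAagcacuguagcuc
miR-99a-5p: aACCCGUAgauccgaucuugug
miR-100-5p: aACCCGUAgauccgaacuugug

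Of 14308482 reads in the untreated library 43.1% were assigned to a miRNA, against 13937058 reads and 15.2% for siRNA 1 and 13218679 reads and 15.9% for siRNA 2 at 48 h. Levels are given as CPM, counts scaled to the library's TMM-adjusted total of miRNA reads, so they are shares of the miRNA pool. The part of the lower miRNA share in any single difference was not tested. A count of 3 reads, the limit that 0 reads allows, equals 0.555 CPM in the untreated library and 1.31 and 1.26 CPM at 48 h. The libraries of siRNA 1 and siRNA 2 at 36 h stood far apart. Over the 479 members, log2 CPM differed between the siRNAs with an SD of 1.22 at 36 h, against 0.59 at 24 h and 0.51 at 48 h. siRNA 2 at 36 h lay near the 48 h libraries, with an SD of 0.54 in log2 CPM from their mean, and siRNA 1 at 36 h lay as far from them (1.04) as untreated did (1.01). Since the 36 h pair varied most, each result is given with it, in the fit of all 7 libraries, and without it, in a fit of 5.

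No miRNA passed the edgeR test of 48 h against untreated in the fit of 7 libraries (0 of 479, 0% called, Benjamini-Hochberg adjusted p of 0.05 as the threshold). At an unadjusted p under 0.05 there were 60 (12.5% of those tested), of which 19 were higher (3.97%) and 41 lower (8.56%). limma-voom also called 0, and DESeq2 called 12, 6 in each direction. Without both 36 h libraries, edgeR called 116 (24.2%), of which 42 were higher (8.77%) and 74 lower (15.4%). Leaving out siRNA 1 at 36 h alone gave 117 calls and leaving out siRNA 2 at 36 h alone gave 112. A fit of the untreated and both 48 h libraries only, where the spread comes from the 2 siRNAs at 48 h, called 83 (17.3%), 30 higher (6.26%) and 53 lower (11.1%), of which 81 were among the 116. These last 4 fits shared 79 calls, 26 higher and 53 lower. They are not independent, since all use the same untreated and 48 h libraries. A 36 h library left alone in its group adds nothing to the spread, so the fits without 1 or both 36 h libraries are nearly the same fit. The split rests on the scale: without the 36 h pair, total miRNA counts in place of TMM, which moved the median of all members from -0.01 to 0.33, gave 82 higher (17.1%) and 42 lower (8.77%), and scaling by all reads (median -1.15) gave 7 higher (1.46%) and 179 lower (37.4%). Differences are therefore relative to the typical miRNA. Some members reached the count minimum only through the group where their reads were more, which bears on their direction: 9 had under 10 reads in untreated cells, of which 7 were called higher, and 55 averaged under 10 reads at 48 h, of which 14 were called lower. miR-145-5p and miR-4485-3p are of the first kind, and miR-122-5p, miR-424-5p and miR-378d of the second. In what follows, "rose" and "fell" are used of calls in the fit of 5 libraries. Fold changes and standard errors (SE) are on the log2 scale from the fit of 7 unless stated. The fit of 7 is the main test. Leaving out the 36 h pair because it varied most lowers the estimated spread, so p-values of the fit of 5 are less cautious.

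The siRNAs gave similar 48 h profiles. Both 48 h libraries lay on the same side of untreated for 407 of the 479 members (85%), above it for 202 (42.2%) and below it for 205 (42.8%). Both lay at least 2-fold above for 31 (6.47%) and at least 2-fold below for 62 (12.9%), and at least 4-fold above for 6 (1.25%) and below for 13 (2.71%). The log2 differences of siRNA 1 and siRNA 2 from untreated had a Pearson r of 0.88 across the members, but both use the same untreated library, and miRNAs are not independent replicates. The median absolute difference between the siRNAs was 0.27 on the log2 scale. They stood over 2-fold apart for 29 members, of which 5 had a mean count of at least 50. One of those 5 was miR-301a-3p, at 9.16 CPM with siRNA 1 and 2.95 with siRNA 2.

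**Figure D1:**
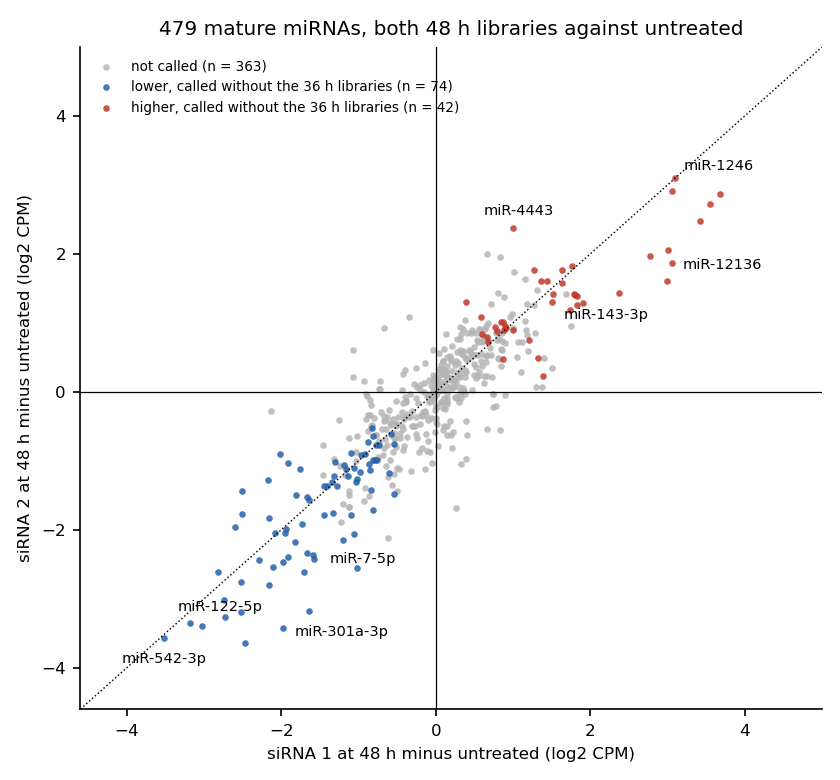
Each point is 1 of 479 miRNAs, with the log2 CPM difference of siRNA 1 at 48 h from untreated on the x axis and that of siRNA 2 on the y axis. The dotted line marks equal values, and colours mark the 74 miRNAs called lower and the 42 called higher by edgeR without the 36 h libraries. Most points lie at the lower left or the upper right, and the 2 axes share the untreated library.

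miR-542-3p, a miRNA of an X-linked cluster with miR-424 and miR-503, had the largest difference downward among members averaging 50 counts or more. It stood at 128 CPM in untreated cells, 10.5 with siRNA 1 and 10.1 with siRNA 2 at 48 h. Both 48 h libraries were low and alike. It was 12.4 times lower at 48 h, with a log2 value of -3.63 ± 1.06 (SE, adjusted p = 0.367), and it fell in the fit of 5 libraries (-3.62 ± 0.35, adjusted p = 6.5e-22). Its cluster partner miR-424-5p went from 13.1 to 1.75 and 3.37 CPM (71, 4 and 8 reads) and fell too, whereas miR-424-3p, from the other arm of that hairpin, stood at 46.8 CPM untreated and 73.7 and 90.9 at 48 h and was not called. miR-424-5p reached the count minimum only through untreated cells, which bears on its direction.

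miR-340-5p, encoded on the minus strand of an RNF130 intron (chr5:180015361-180015382, GRCh38), stood at 1152 CPM in untreated cells and 141 and 109 at 48 h. The 48 h values lay far below the 24 h values of 1109 and 856. Its difference from untreated was -3.20 ± 0.97 (adjusted p = 0.367), and it fell without the 36 h pair (adjusted p = 1.8e-27). miR-374a-3p, from an intron of the non-coding gene FTX (chrX:74287295-74287316), was at 993 CPM untreated and 149 and 103 at 48 h (-2.98 ± 1.14), and fell (adjusted p = 7.1e-25). miR-101-3p, known to target the histone methyltransferase EZH2, went from 3030 to 452 and 375 CPM (-2.87 ± 1.03) and fell (adjusted p = 3.7e-26). With 6231, 5373 and 16391 reads in the untreated library, these 3 carry little counting error there. miR-32-5p, from a TMEM245 intron (chr9:109046272-109046293), went from 283 to 57.2 and 51.7 CPM and miR-590-3p, from an EIF4H intron (chr7:74191253-74191273), from 34.4 to 10 and 5.05, and both fell.

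miR-7-5p, which is known to target EGFR and to be bound by the circular RNA CDR1as, had the smallest p of all members in the fit of 7 libraries. Its level was 63964 CPM in untreated cells (345967 reads), 21161 with siRNA 1 and 12389 with siRNA 2 at 48 h. Both libraries lay well below untreated, siRNA 2 more so. The difference was -1.93 ± 0.34 (unadjusted p = 0.000771, adjusted p = 0.367), and miR-7-5p fell in the fit of 5 libraries (adjusted p = 8.5e-15) and in that of 3 (adjusted p = 0.0096). RefSeq places it in hairpins in an HNRNPK exon (chr9:83969811-83969834, minus strand) and in a MIR7-3HG intron (chr19:4770700-4770723). miR-7-1-3p, the opposite arm of the HNRNPK hairpin, went from 53.8 to 13.5 and 13 CPM and fell as well. The reads of miR-7-5p cannot be assigned to one of its hairpins. miR-671-5p, known to direct cutting of CDR1as, went from 55.8 to 9.16 and 5.47 CPM (-2.93 ± 0.87) and fell (adjusted p = 1e-10). With 302, 21 and 13 reads, it is known less precisely than miR-7-5p.

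miR-122-5p, the leading miRNA of hepatocytes, was scarce in these cells. It stood at 45.1 CPM untreated (244 reads, 95% exact interval 39.6 to 51.1), 4.36 with siRNA 1 (10 reads, 2.09 to 8.02) and 3.79 with siRNA 2 (9 reads, 1.73 to 7.19). The intervals of the 48 h libraries do not reach the untreated one. Its difference was -3.46 ± 1.28 (adjusted p = 0.367), and it fell in the fit of 5 libraries (adjusted p = 8.6e-11). The other measured hepatocyte markers were not called. miR-192-5p stood at 2459 CPM untreated and 3062 and 2942 at 48 h, miR-194-5p at 72.5 against 83.8 and 89.6, and miR-122-3p and miR-885-5p had no read in any of the 3 libraries. Of 10 liver-enriched miRNAs measured, 3 fell (miR-122-5p, miR-101-3p and miR-30a-5p) and none rose, with a median of -0.38, where 15.4% of all members fell and 8.77% rose. miR-122-5p reached the count minimum only through untreated cells, which bears on its direction. Apart from it, only miR-101-3p and miR-30a-5p fell. miR-30a-5p was no longer called once GC content or total counts were allowed for (adjusted p = 0.12 and 0.57).

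**Figure D2:**
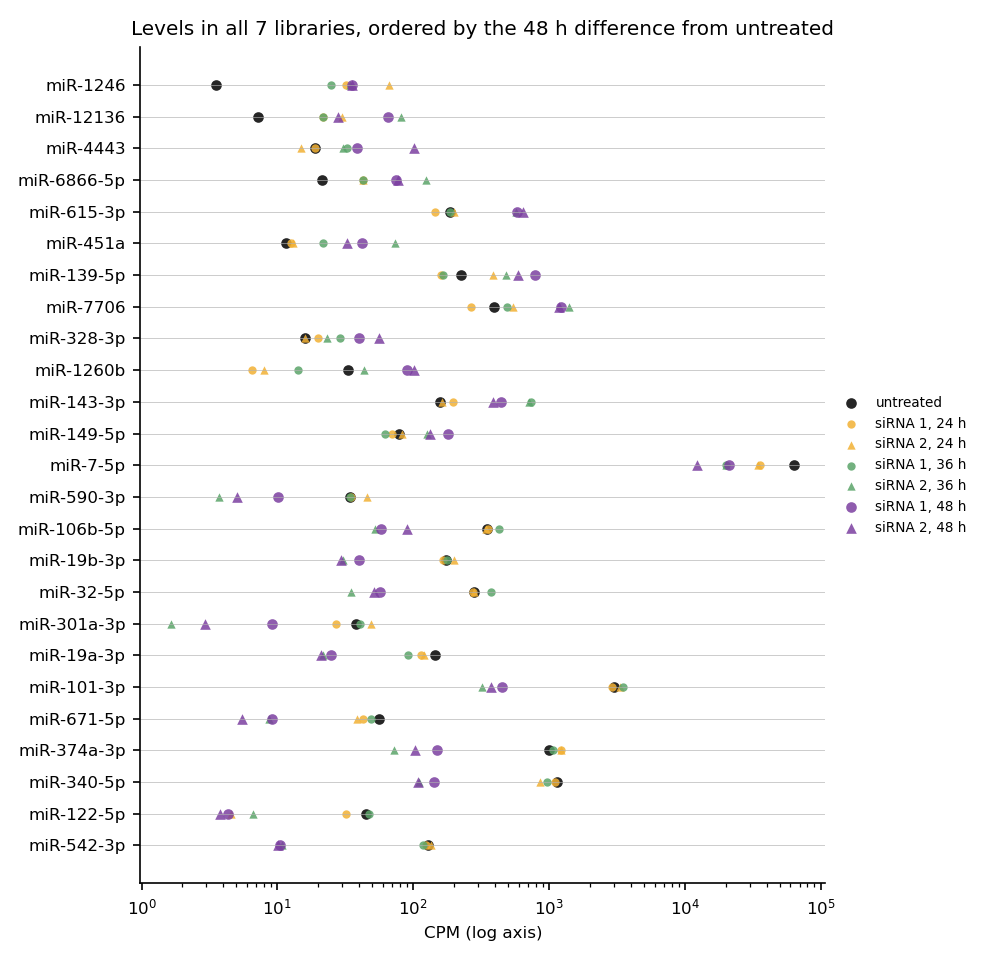
Levels (CPM, log axis) in all 7 libraries of the miRNAs with the 12 largest positive and 12 largest negative log2 fold changes, and miR-7-5p. Black is untreated, circles are siRNA 1, triangles siRNA 2, and colours give the time. For the 12 lower ones the siRNA 2 library at 36 h sits beside the 48 h libraries and siRNA 1 at 36 h beside untreated.

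Members of the seed family AAAGUGC were lower together. All 6 of its measured members lay below untreated in both 48 h libraries, where 42.8% of all members did, with a median of -1.54 against -0.01 for all 479. In the fit of 5 libraries 5 of 6 fell, where 15.4% of all members did. miR-20a-5p went from 3604 CPM to 853 and 871 (-2.06 ± 0.66, adjusted p = 2.2e-14 without the 36 h pair). miR-17-5p went from 2502 to 1000 and 1069 (-1.27 ± 0.48, adjusted p = 8.6e-06). The 48 h libraries were alike for both. miR-106b-5p went from 352 to 57.6 and 90 CPM (-2.25 ± 0.96, adjusted p = 2.7e-12), miR-106a-5p from 79.9 to 22.3 and 27.8, and miR-93-5p from 1654 to 937 and 1149 (-0.67 ± 0.37). miR-93-5p was just inside the threshold (adjusted p = 0.047) and was not called with total counts as the scale (0.41). miR-20b-5p, at 13.1 CPM untreated and 5.67 and 4.21 at 48 h, missed the threshold (0.051). Members of this family differ at few bases, so reads could pass between rows, and how the authors' counting treated them is not given.

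The miR-17-92 cluster on chromosome 13 did not move as 1 unit. Of its 10 measured strands, 8 lay below untreated in both 48 h libraries (42.8% of all members did) and 2 above, with a median of -1.29, and 5 fell (15.4% of all members did). The 5 that fell were miR-17-5p, miR-18a-5p, miR-19a-3p, miR-19b-3p and miR-20a-5p, and the same 5 fell in the fit of 3 libraries, with GC allowed for and with total counts as the scale. miR-19a-3p (chr13:91350939-91350961, in a MIR17HG exon) went from 146 to 24.9 and 21 CPM (-2.67 ± 0.71, adjusted p = 4.7e-14). miR-19b-3p, of the same seed, went from 174 to 39.7 and 29.5 CPM and fell (adjusted p = 6.9e-12). miR-92a-3p, the most abundant strand of the cluster, stood at 14846 CPM untreated and 18162 and 19818 at 48 h (0.36 ± 0.36, adjusted p = 0.66). Both 48 h libraries lay above untreated, and the direction turned under scaling by all reads. miR-18a-5p fell from 57.1 to 12.2 and 15.6 CPM while miR-18a-3p stood at 31.2 against 38.8 and 53.4 and was not called.

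The related cluster in an MCM7 intron (miR-106b-25) split likewise. miR-106b-5p (chr7:100094043-100094063, minus strand) and miR-93-5p fell. miR-25-3p stood at 5368 CPM untreated and 5439 and 5664 at 48 h (0.05 ± 0.31). The cluster's median over 6 strands was -0.32. miR-25-3p and miR-92a-3p carry the seed AUUGCAC, which they share with miR-32-5p, and of the 4 measured miRNAs with that seed miR-32-5p alone was called. Of 11 guide strands of clusters linked to E2F and MYC, 7 fell and none rose (median -1.27), against 15.4% and 8.77% of all members. In the fit of 3 libraries 6 were called lower. With GC allowed for, 7 were called lower and 1 higher, and with total counts as the scale 6 and 1. That list overlaps both clusters.

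The seed AGUGCAA is that of miR-130, miR-301 and miR-454. All 5 measured members lay below untreated in both 48 h libraries, where 42.8% of all members did, with a median of -1.0, and 3 fell (15.4% of all). miR-301a-3p, from an SKA2 intron (chr17:59151149-59151171), went from 38.3 to 9.16 and 2.95 CPM (207, 21 and 7 reads) and fell (-2.66 ± 1.34, adjusted p = 8.3e-08). miR-454-3p, of the same gene, went from 413 to 243 and 208 CPM (adjusted p = 0.014) and miR-130b-3p from 54.2 to 29.7 and 24.4 (0.029). Both fell, but neither was called with GC allowed for (0.32 and 0.079) or total counts as the scale (0.14 for each). miR-130a-3p, at 44.7 CPM untreated and 20.1 and 27.8 at 48 h, was not called (0.058).

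The seed CUGGACU is that of miR-378, whose main member miR-378a-3p is made from an intron of the metabolic coactivator gene PPARGC1B. miR-378a-3p itself stood at 3461 CPM untreated and 2712 and 2688 at 48 h (-0.36 ± 0.50) and was not called. The 3 scarcer relatives fell, where 15.4% of all members did: miR-378c went from 63 to 15.7 and 14.7 CPM (-2.05 ± 0.63, adjusted p = 5.4e-07), miR-378i from 30.1 to 9.16 and 9.68, and miR-378d from 14.2 to 2.62 and 5.47. miR-378d reached the count minimum only through untreated cells, which bears on its direction. Reads of these near copies may be shared between rows.

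The let-7 family, known as a brake on growth genes, made up much of the pool. Its 9 guide strands had a median of 0.07, with 5 above and 4 below untreated in both 48 h libraries. let-7f-5p stood at 131823 CPM untreated and 74853 and 66718 at 48 h (-0.90 ± 0.33), let-7i-5p at 68322 against 39821 and 40121, let-7g-5p at 42641 against 21830 and 22697, and miR-98-5p at 3074 against 1750 and 1972. These 4 of the 9 fell in the fit of 5 libraries (adjusted p from 0.00055 to 0.023), where 15.4% of all members did. Yet none of the 4 was called with GC allowed for or with total counts as the scale. In each of those settings 1 of the 9 guide strands was called higher, where 9.39% and 17.1% of all members were. let-7a-5p, at 29325 CPM untreated and 29762 and 32005 at 48 h (0.07 ± 0.26), and let-7b-5p, at 6820 against 9224 and 10418 (0.53 ± 0.34), were not called in the fit of 5 libraries. let-7 strands differ by few bases, so their counts are uncertain in the same way.

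**Figure D3:**
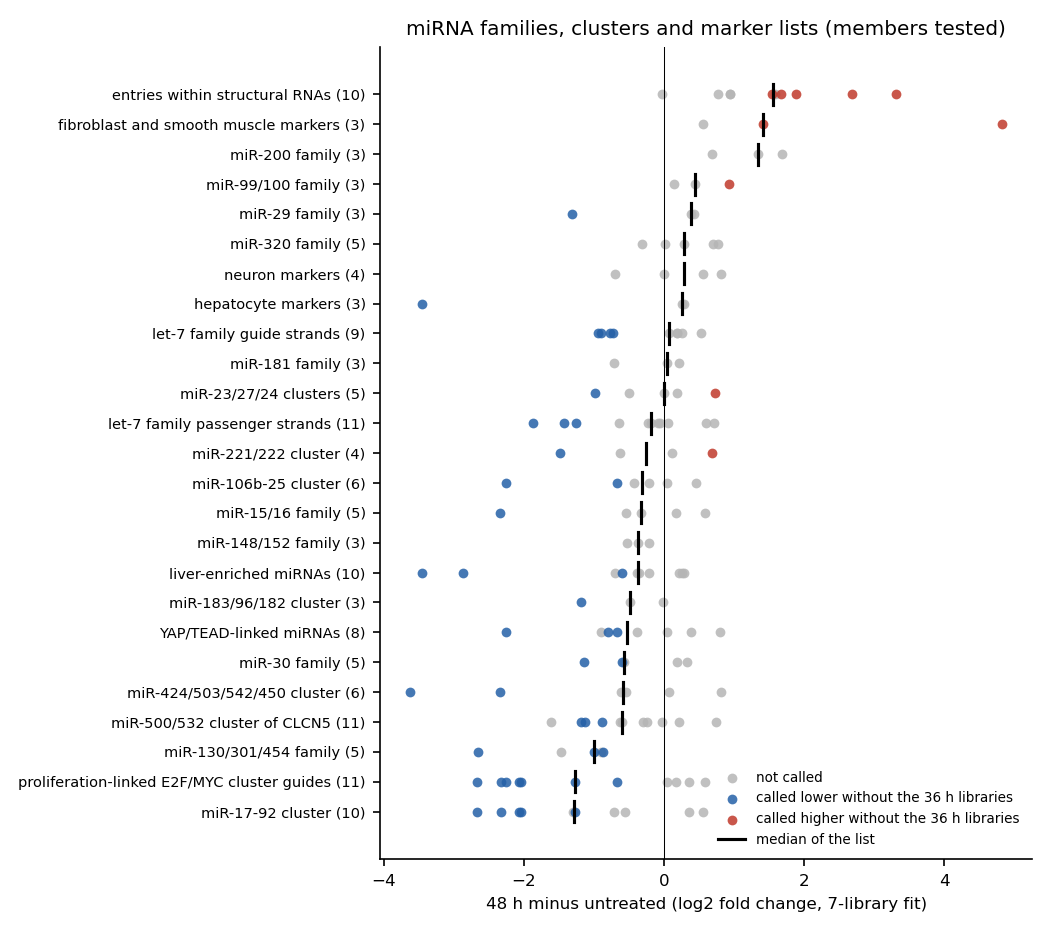
Log2 fold change at 48 h against untreated (x axis, fit of 7 libraries) of the measured members of 25 miRNA families, clusters and marker lists with at least 3 measured, the number measured being in parentheses. Bars mark medians and colours mark calls without the 36 h libraries. The miR-17-92 cluster has the lowest median (-1.29) and the entries within structural RNAs the highest (1.56).

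miR-1246 had the largest difference upward among members averaging 50 counts or more. It stood at 3.51 CPM in untreated cells (19 reads, interval 2.12 to 5.49), 35.3 with siRNA 1 (81 reads) and 35.3 with siRNA 2 (84 reads). Both 48 h libraries were far above untreated, at 10.1 times its level on average. The difference was 3.31 ± 0.66 (adjusted p = 0.367), miR-1246 rose in the fit of 5 libraries (adjusted p = 8.2e-10), and DESeq2 on 7 libraries called it too (0.00084). Its 24 h values, 31.9 and 66.8 CPM, were near or above those at 48 h. Its sequence lies within 19 annotated small nuclear RNA transcripts of the U2 kind (GENCODE v29). miR-12136, whose sequence lies within the mitochondrial tRNA gene MT-TS1, was at 7.21 CPM untreated and 65 and 28.2 at 48 h (2.68 ± 0.95), and rose (adjusted p = 1.9e-07). The siRNAs differed here, siRNA 1 being more than 2-fold above siRNA 2.

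Rows whose sequence lies in longer structural RNAs were mostly higher. A search of 5216 annotated nuclear, nucleolar, Cajal body and mitochondrial RNA transcripts found 9 members within one, and 9 of 9 were above untreated in both 48 h libraries (42.2% of all members were), with a median of 1.58. Of these, 3 rose, where 8.77% of all members did: miR-1246, miR-12136 and miR-4485-3p, whose sequence lies within the mitochondrial rRNA gene MT-RNR2. miR-4485-3p had 3 reads in untreated cells and 35 and 20 at 48 h, a ratio of rates of 21.2 (95% exact interval 6.90 to 106), and it passed the count minimum only through the 48 h libraries. Without it 8 of 8 were above, with a median of 1.26, and 2 rose. The other 6 of the 9, miR-1291 (1.58 ± 0.69) and miR-664a-3p among them, were not called. On a list of 10 measured rows known or thought to come from such RNAs, 9 were above and 1 below, and 5 rose (8.77% of all members did). miR-4443 stood at 18.9 CPM untreated, 38.4 with siRNA 1 and 101 with siRNA 2, and rose in the fit of 5 libraries but not in that of 3 (adjusted p = 0.07). miR-1260b stood at 32.9 CPM against 90.3 and 102 (1.54 ± 0.66) and rose (0.00026). The counts do not separate reads of these rows from pieces of the longer RNAs.

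Among miRNAs of ordinary hairpins, several of middle abundance were near 3-fold higher. miR-615-3p, from a HOXC gene intron (chr12:54034010-54034031), stood at 187 CPM untreated and 581 and 642 at 48 h (1.71 ± 0.67, adjusted p = 1.3e-06 without the 36 h pair). miR-139-5p, from a PDE2A intron (chr11:72615102-72615124), stood at 225 against 784 and 596 CPM (1.62 ± 0.77, adjusted p = 3.1e-06). miR-7706, in an AKAP13 exon (chr15:85380639-85380662), stood at 396 against 1235 and 1181 CPM (1.61 ± 0.70, adjusted p = 1.2e-06). All 3 rose, and for each of them both 48 h libraries were above the untreated library and above both 24 h libraries. miR-328-3p (16.1 against 39.7 and 56.4 CPM) and miR-149-5p, from a GPC1 intron (78.8 CPM untreated and on average 2-fold higher at 48 h), also rose, the latter not with GC allowed for (adjusted p = 0.10). miR-6866-5p went from 21.4 to 74.2 and 77.4 CPM and rose (1.7e-05).

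miR-143-3p, abundant in smooth muscle and fibroblasts, had the third smallest p in the fit of 7 libraries. It stood at 157 CPM untreated and 446 and 390 at 48 h (1.41 ± 0.34, adjusted p = 0.367), and it rose in the fit of 5 libraries (9.1e-05). Its 24 h values were 196 and 164 CPM and its 36 h values 744 and 711, so all 4 later libraries were high. Its neighbour miR-145-5p, from the same host gene CARMN (chr5:149430661-149430683), had 1 read in untreated cells and 20 and 10 at 48 h, a ratio of rates of 34.8 (95% exact interval 5.78 to 1418). It rose, but it passed the count minimum only through the 48 h libraries, so its direction was set by the filter. The summed level of 8 fibroblast and smooth muscle markers was 165 CPM untreated and 468 and 407 at 48 h, nearly all of it miR-143-3p, with miR-143-5p at 0 in all 3 libraries and miR-214-3p at 0 at 48 h. miR-451a, an erythroid miRNA made without Dicer, stood at 11.6 CPM untreated and 41.9 and 32.4 at 48 h and rose (0.0021). The 9 blood markers summed to 15.9, 46.7 and 37.4 CPM, and miR-223-3p and miR-486-3p were at 0 in all 3. Muscle markers (23.9, 28.4 and 26.9 CPM), endothelial markers (292, 374 and 442 CPM) and neuron markers (1185, 1209 and 1181 CPM) moved less. The part of other cells' RNA in these values was not tested.

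The 10 most abundant held 85.6% of the CPM in untreated cells. miR-21-5p, abundant in many tumour lines, stood at 360944 CPM untreated and 292765 and 257291 at 48 h (-0.39 ± 0.36, adjusted p = 0.632), and it was not called in any edgeR fit without the 36 h pair on TMM or total counts. miR-99a-5p, known to target MTOR, stood at 32032 CPM untreated and 59426 and 62083 at 48 h (0.92 ± 0.44, adjusted p = 0.372). It rose in the fit of 5 libraries (adjusted p = 0.0013) and in that of 3 (0.025). miR-100-5p, which has the same seed, stood at 39661 against 52120 and 55284 CPM (0.44 ± 0.44) and was not called. Both directions turned under scaling by all reads. miR-30a-5p stood at 72576 against 48390 and 47577 CPM.

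The list of miRNAs linked to YAP and TEAD holds 13, of which 8 were measured. Of these, 5 lay below untreated in both 48 h libraries and 3 above, where 42.8% and 42.2% of all members did, and the median was -0.53. The 3 that fell, where 15.4% of all members did, were miR-106b-5p, miR-93-5p and miR-31-5p. None rose, but in the fit of 3 libraries 2 of the 8 were called lower and 1 higher (11.1% and 6.26% of all members were). With GC allowed for, 3 were called lower and 1 higher (13.4% and 9.39% of all). With total counts as the scale it was 1 and 1 (8.77% and 17.1% of all). miR-31-5p, from a MIR31HG intron (chr9:21512158-21512178), went from 500 to 271 and 300 CPM (adjusted p = 0.023), and was not called with total counts as the scale (0.22). miR-29b-3p, which is known to target collagens, went from 384 to 158 and 149 CPM and fell (2.9e-05), though siRNA 2 at 24 h had 1275 CPM. miR-675-5p, made from the imprinted RNA H19 that HepG2 expresses, went from 211 to 84.7 and 103 CPM and fell (0.0012), while miR-675-3p stood at 66.7 against 80.7 and 100 CPM. miR-210-3p, the hypoxia miRNA, stood at 146 CPM untreated, 191 with siRNA 1 and 361 with siRNA 2. It rose in the fit of 5 libraries (0.018) but not in that of 3 (0.14). The 3 measured members of the miR-200 family, which represses ZEB factors, were all above untreated (median 1.35) at low counts. They were not called on TMM scaling, 2 were called with GC allowed for, and 3 with total counts. Of all members, 9.39% and 17.1% were called higher in those settings.

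The arms of 1 hairpin could differ. Of 115 pairs of measured strands that RefSeq places in 1 hairpin, with 7 strands in more than 1 pair, 26 had both arms above untreated in both libraries, 25 had both below and 38 had them on opposite sides. The arms' fold changes had a Pearson r of 0.12 across pairs, and 40 pairs differed at least 2-fold. In 40 pairs 1 arm was called in the fit of 5 libraries and in 6 both were. Of all members, 24.2% were called there, and 42.2% lay above and 42.8% below untreated in both 48 h libraries. How many such pairs unrelated strands would give was not tested, so the counts are not read as a trait of hairpins. Pairing by name alone uses each strand once. It adds pairs such as miR-374a, miR-221, miR-21 and miR-31 and drops others, such as miR-7-5p with miR-7-1-3p. It gave 114 pairs, 24 with both arms above, 27 with both below and 38 on opposite sides. Of those, 38 had 1 arm called and 6 both, miR-374a among them. miR-340-3p stood at 91.9 CPM untreated and 115 and 86.2 at 48 h (0.13 ± 0.55), beside the 9.19 times lower miR-340-5p. Its sequence, with the seed in capitals, shows that the arms have no seed in common.
miR-340-3p: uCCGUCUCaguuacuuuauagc
miR-671-3p stood at 49.2 CPM against 67.6 and 89.2 (0.67 ± 0.51), beside the 7.63 times lower miR-671-5p. miR-582-3p went from 8289 to 3045 and 2411 CPM and fell (9.5e-10), while miR-582-5p stood at 212 against 288 and 322 CPM. In 1 pair both arms were called in opposite directions: miR-222-5p fell (17.6 to 7.85 and 4.63 CPM, 0.024) and miR-222-3p rose (2774 to 5056 and 3869 CPM, 0.036). That pair, miR-582 and miR-301a were chosen here after their values were seen. The arms were compared as values, with no test of the difference between them.

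**Figure D4:**
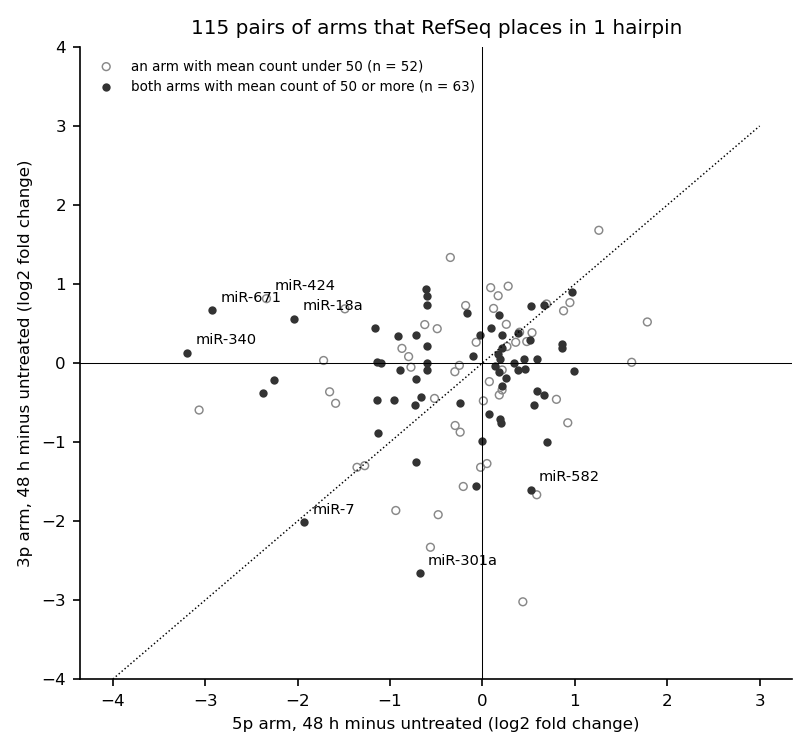
Each point is 1 of 115 pairs of arms in RefSeq, with the log2 fold change at 48 h of the 5p arm on the x axis and of the 3p arm on the y axis. Filled points have a mean count of at least 50 in both arms (63 pairs), and the dotted line marks equal change. miR-340, miR-671 and miR-18a lie far left at a 3p value near or above 0, and miR-7 lies on the line.

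The 48 h difference went with base composition. Across the members, the G and C content of the mature miRNA had a Pearson r of 0.36 and a Spearman rho of 0.31 with the log2 fold change (n = 479 miRNAs, which share the libraries). Among 45 miRNAs with at most 35% G and C the median was -0.87, and 22 fell (48.9%) and 2 rose (4.44%). Among 56 with over 65% the median was 0.29, and 3 fell (5.36%) and 8 rose (14.3%). Of all members, 15.4% fell and 8.77% rose. Against untreated, the r of single libraries was 0.34 and 0.35 for the 48 h libraries, 0.39 for siRNA 2 at 36 h, 0.04 for siRNA 1 at 36 h, and -0.05 and 0.02 at 24 h. With a linear GC trend taken out of each library, the fit of 5 called 109 (22.8%), 45 higher (9.39%) and 64 lower (13.4%), and 84 of them were among the 116. In that fit 7 were higher and 12 lower of the 45 with least G and C. Of the 56 with most, 5 were higher and 10 lower. The 12 named lower miRNAs ran from 19% to 69.6% G and C with a median of 34.1%, against 50% for all members, and all 12 were still called. The 12 named higher ones had a median of 52.6%, and 11 of 12 were still called. Both sets were picked as the largest differences in these libraries, so these calls do not test whether the differences stand apart from GC content. Across the 115 pairs of arms, the difference in fold change and the difference in GC content between arms had a Pearson r of 0.16.

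**Figure D5:**
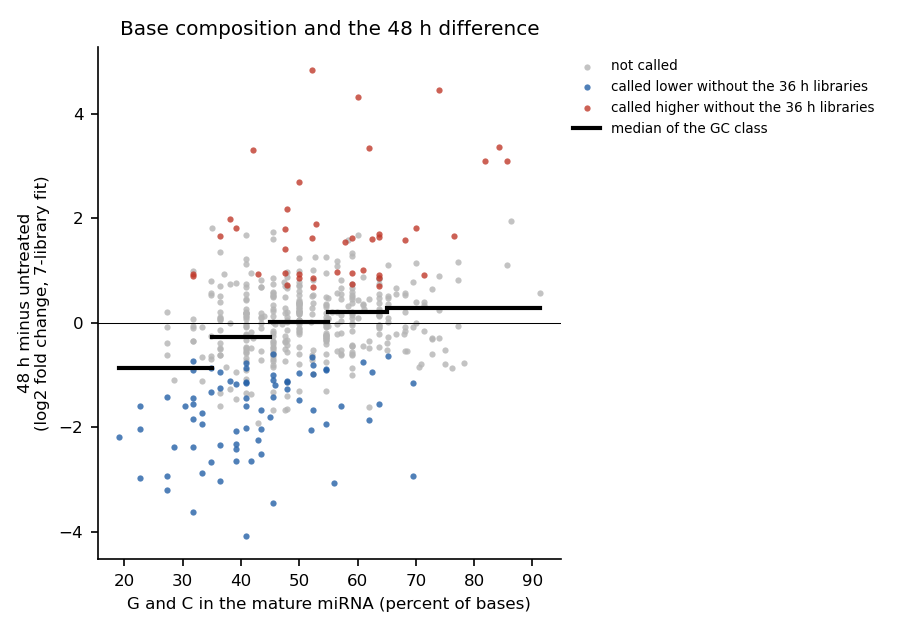
Log2 fold change at 48 h against untreated (y axis, fit of 7 libraries) by the percent of G and C in the mature miRNA (x axis). Points are 479 miRNAs, coloured by the call without the 36 h libraries, and thick lines are medians of 5 GC classes, which run from -0.87 to 0.29.

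Against the 24 h libraries, which do not involve the untreated one, 48 h gave 0 calls of 479 in the fit of 7 (90 at an unadjusted p under 0.05; limma-voom 0, DESeq2 21). Without the 36 h pair 136 were called, 53 higher (11.1%) and 83 lower (17.3%). The 48 h libraries are shared with the comparison above, so the calls are not independent of it. The 12 lowest and 12 highest named miRNAs were picked for large differences of these 48 h libraries from untreated. Their counts below are therefore no independent test. All 12 of the lowest named miRNAs were called here, and at 24 h all were nearer to untreated than to 48 h with siRNA 1. With siRNA 2, 11 of 12 were, and the exception was miR-122-5p, at 4.59 CPM. miR-542-3p stood at 125 and 135 CPM at 24 h and miR-101-3p at 2934 and 3348. miR-7-5p was intermediate, at 35654 and 34337 CPM, and the step from 24 to 48 h was -1.06 ± 0.29 (adjusted p = 0.235, and 2.7e-07 without the 36 h pair). Of the 12 highest, 10 were called. The other two, miR-1246 (-0.48 ± 0.44) and miR-12136 (0.86 ± 0.68), were already above untreated at 24 h.

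At 36 h the siRNAs differed for the named miRNAs. For the 12 lowest, siRNA 2 at 36 h was nearer to the 48 h mean in 12 of 12 and siRNA 1 at 36 h in 0 of 12. miR-340-5p stood at 962 CPM with siRNA 1 and 110 with siRNA 2 at 36 h, and miR-374a-3p at 1063 and 72.6. For the 12 highest the counts were 9 and 6. Both sets were picked for their 48 h difference from untreated, so these counts describe the picked miRNAs only. miR-7-5p was the same in both, at 20202 and 20132 CPM. Whether a 36 h label is wrong was not tested, and no 36 h library enters the fit of 5 or of 3 libraries.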

How the data were processed

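Small RNA was sequenced from HepG2 cells grown in DMEM with serum. Per the labels' protocols, total RNA was taken with a column kit and 2 ug entered an NEB small RNA kit that ligates adapters. The files deposited by the authors hold raw counts of reads per mature miRNA, 1 file per library. No aligner, counter or genome build is given in the sources used here. Library sizes and tests leave out 5 summary lines, and reads of no feature were 56.9% of all reads in untreated cells and 84.8% and 84.1% at 48 h.

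Counts were fitted with edgeR 4.0.16 (R 4.3.3) by the quasi-likelihood F-test, with TMM factors and group as a factor, over all 479 members, and p-values were adjusted by Benjamini-Hochberg at 0.05. The spread of the pairs stands for that of the single untreated library. CPM used TMM-scaled library sizes (prior count 2 on the log2 scale). SE is the log2 fold change over the square root of F. Intervals are exact (95%, Clopper-Pearson for CPM and conditional binomial for ratios); without molecular identifiers they cover counting error only. Alternatives were DESeq2 1.42.0, limma-voom 3.58.1, other scalings, filters and sample sets, a GC trend removed per library, and the siRNA number as a block. Scripts were tested on simulated counts.

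Named miRNAs are the 12 largest differences in each direction among members averaging 50 counts or more with both 48 h libraries on 1 side, the 3 smallest p-values, the 10 most abundant and members of 38 lists; others were chosen after their values were seen. The members and lists were chosen with earlier results of these data known. Near-identical miRNAs are uncertain, and 4 members share their sequence with another row. Coordinates are those of RefSeq on GRCh38 with GENCODE v29 gene models.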

Additional observations from a re-analysis of the deposited data

Results flagged for a closer look

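For 5 named miRNAs both 48 h libraries lay on one side of untreated and both 24 h libraries on the other, and the step from 24 to 48 h was tested in the edgeR fit of 7 libraries. miR-1260b was at 1.54 at 48 h and -2.19 at 24 h (log2 fold change against untreated), a step of 3.73 ± 0.58 (SE, adjusted p = 0.170). miR-374a-3p was at -2.98 and 0.30, a step of -3.28 ± 1.05 (0.235). miR-590-3p was at -2.18 and 0.23, a step of -2.41 ± 0.91 (0.244). miR-99a-5p was at 0.92 and -0.18, a step of 1.10 ± 0.35 (0.235). miR-100-5p was at 0.44 and -0.17, a step of 0.60 ± 0.35 (0.386). None of the 5 steps passed the threshold in that fit. In the fit without the 36 h pair all 5 did, with adjusted p-values of 3.8e-23, 1.2e-35, 8.2e-09, 1.1e-06 and 0.017 in the same order. There, 11.1% of all members were called higher and 17.3% lower at 48 h than at 24 h. The 5 were picked for their sides in these same libraries, so the p-values are no independent test of the steps.

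Reads given to no miRNA, which the comparisons do not use, made up 84.8% of the library of siRNA 1 at 48 h and 84.1% of that of siRNA 2, against 56.9% in untreated cells. What they are was not tested.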

How the results depend on the processing

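For 48 h against untreated, where 0 miRNAs passed, 115 passed with all reads as the scale, 12 with DESeq2, 39 with no count filter (of 1560), 83 with only the untreated and 48 h libraries, 116 without both 36 h libraries, and 0 to 117 when single libraries were left out (117 without siRNA 1 at 36 h, 112 without siRNA 2 at 36 h, 0 without any other). Without both 36 h libraries, 124 passed with total miRNA counts as the scale, 186 with all reads and 109 with the GC trend removed. Also without them, 76 passed with the siRNA number as a replicate block and 71 with DESeq2, both chosen after seeing the data. For 48 h against 24 h, where 0 passed, the counts were 27 with all reads, 21 with DESeq2, 51 with no filter, 136 without both 36 h libraries (164 with total counts, 56 with all reads, 121 with the GC trend removed), 1 with the GC trend removed in 7 libraries, and 0 to 139 when single libraries were left out. The replicate block in 7 libraries gave 0 calls for both comparisons. Same-numbered libraries are labelled with the same siRNA. Their deviations from the mean of their time correlated at 0.096 (24 and 36 h), -0.21 (24 and 48 h) and -0.14 (36 and 48 h). Members on 1 side of untreated in both 48 h libraries numbered 246 of 283 with a mean count of 50, against 407 of 479. With DESeq2 size factors, limma-voom, a mean count of 50 or a mean of 10 over 7 libraries, 0 passed. Of 82 miRNAs followed through the alternatives, 60 kept their direction under all alternatives run, and 22 did not. Scaling by all reads, with or without the 36 h pair, turned miR-149-5p (-0.14), miR-210-3p (-0.20), miR-99a-5p (-0.21), miR-125a-5p (-0.27), miR-424-3p (-0.31), miR-200c-3p and miR-671-3p (-0.45 each), miR-222-3p (-0.46), miR-18a-3p (-0.56), let-7b-5p (-0.60), miR-582-5p (-0.61), miR-126-3p (-0.65), miR-675-3p (-0.69), miR-100-5p (-0.70), miR-92a-3p (-0.78), miR-192-5p (-0.85), miR-194-5p (-0.87), miR-1-3p (-0.93), miR-340-3p (-1.01), let-7a-5p (-1.06) and miR-25-3p (-1.09). miR-21-5p turned with the GC trend removed (0.029, and 0.041 without the 36 h pair), let-7a-5p (-0.027) and miR-25-3p (-0.054) with no filter, and miR-340-3p (-0.091) without siRNA 1 at 48 h, against 0.33 without siRNA 2. Scaling by all reads lowers all values by construction, since the miRNA share is smaller at 48 h; the cause of the other changes was not tested. The lower miRNA depth at 48 h (2114050 and 2095438 reads against 6171851) limits miRNAs of few reads such as miR-145-5p.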

Other observations

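Of the 12 miRNAs that DESeq2 called on 7 libraries, 3 have not been described above. miR-4521 stood at 575 CPM in untreated cells and 192 and 106 at 48 h (-1.94 ± 0.52 on the log2 scale, SE), and fell in the edgeR fit without the 36 h pair (adjusted p = 4.4e-10). miR-7704, in a HOXD1 exon (chr2:176188843-176188861, GRCh38), had 10 reads untreated and 47 and 44 at 48 h (1.85, 20.5 and 18.5 CPM) and rose (7.2e-06). miR-10394-3p had 2 reads untreated and 27 and 15 at 48 h, a ratio of rates of 24.3 (95% exact interval 6.33 to 207). It rose (2e-05), but it passed the count minimum only through the 48 h libraries, so its direction was set by the filter. These 3 were chosen after their values were seen. miR-125a-5p, related to the regulator of developmental timing lin-4, stood at 620 CPM untreated and 934 and 1311 at 48 h, and rose without the 36 h pair (0.013) but was not called in the fit of the untreated and 48 h libraries (0.065).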
